A study of Mus musculus with 9 samples.

Results

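The cytosolic ribosomal protein genes were examined in whole brains of young and old male mice by RNA-seq. Members were the protein-coding genes of the deposited count table whose mouse symbol has the form Rps or Rpl with a number, together with Rpsa, Rplp0, Rplp1 and Rplp2, and without the S6 kinase genes. The rule gave 80 genes of 49315, with 31 named for the small subunit and 49 for the large subunit. All mice were wild-type C57BL/6J. The young group held 5 mice given an age of 3 months in their labels, which the methods of the study state as 3 or 4 months, and the old group 4 mice aged 33 months. Each library came from 1 mouse, from polyA-selected RNA, and old replicate 2 was not analysed here. Gene counts summed to between 14229259 and 21150439 per library. Levels are given as CPM (counts scaled to a common library total) after TMM normalization, which scales libraries to a common trimmed mean. Summed levels of marker lists are CPM of the library total without the TMM factor.

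Ribosomal proteins assemble with ribosomal RNA into the small subunit, which reads the mRNA, and the large subunit, which forms peptide bonds. Their mRNAs are abundant in every cell, and most begin with a 5′ terminal oligopyrimidine (TOP) tract, a C followed by a run of pyrimidines, through which mTORC1 and Larp1 control their translation. In brain, ribosomes are found in cell bodies and also in dendrites and axons. The tissue label was checked against marker genes. The neuronal marker Snap25 averaged 2000 CPM over the libraries, the astrocyte marker Slc1a2 2310 CPM and the myelin gene Mbp 3230 CPM.

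Ribosomal protein mRNAs were higher in old brain. A total of 77 of the 80 members passed the filter on low counts, and 46 of them (59.7%) rose with an adjusted p under 0.05 in edgeR (quasi-likelihood F test, Benjamini-Hochberg correction over 18492 genes). In the same test 6.2% of all genes tested rose. No member fell by this test, none fell at an unadjusted p under 0.05 and DESeq2 called 0 lower, whereas 4.83% of all genes tested fell. The fold change was positive for all 77 members, with a median log2 fold change of 0.15, an increase of 11.2%. The median over all genes tested was -9.2e-05. The changes were small, from 0.676% to 21.3%, and 0 members passed a log2 fold change of 0.58.

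The members were mostly abundant, and 76 of the 77 had a mean log2 CPM over 5. Among the 6455 genes above that level, 7.41% rose and the median log2 fold change was -0.011. Without any test statistic, 40 of the 77 members (51.9%) had every old library above every young library, against 6.5% of all genes tested. The calls and this separation coincided for 36 members.

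**Figure D1:**
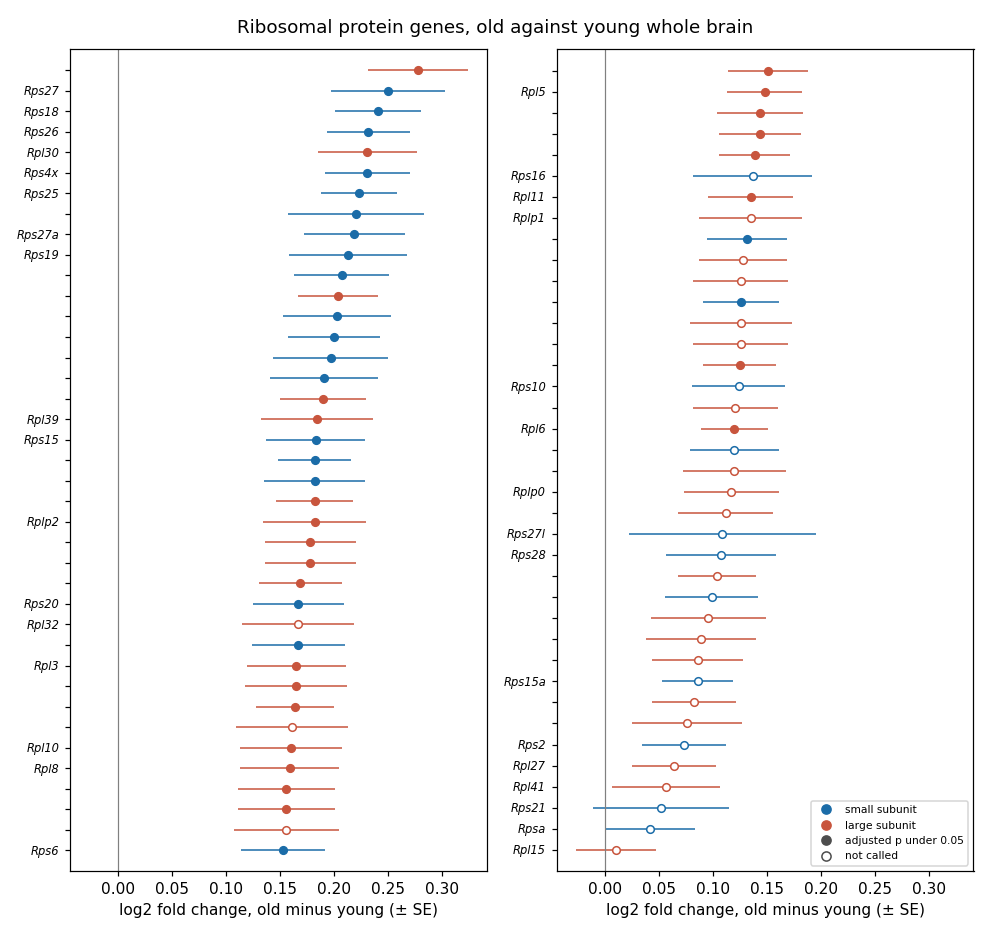
Log2 fold change (old minus young, x axis) of each of the 77 tested ribosomal protein genes, ordered by size and labelled where the text gives the gene. Bars are standard errors derived from the edgeR F statistic. Filled points passed an adjusted p of 0.05 and open points did not. All 77 points lie above 0 and none reaches 0.30.

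The rise was seen in each old library as a whole. Member counts made up 0.891%, 0.966%, 0.961%, 0.882% and 0.941% of gene counts in young mice 1 to 5, and 1.07%, 0.987%, 1.04% and 1.02% in old mice 1, 3, 4 and 5. The lowest old mouse thus lay above the highest young mouse. The mean log2 CPM of the tested members was 6.76 ± 0.0524 in the 5 young mice (SD, n = 5), against 6.91 ± 0.044 in the 4 old (SD, n = 4). Young mice 1 and 4 were lowest and old mice 1 and 4 highest on this measure, and the groups did not overlap. Within an age, members varied together. The median within-age SD of a member was 0.064 on the log2 CPM scale, and 0.044 after the mean of the members in each library was subtracted. The whole tissue was sequenced, so a change in the share of a cell type and a change in RNA per cell cannot be told apart.

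Markers of other cell types moved with age in the same libraries. All 5 blood markers (hemoglobins and Alas2) rose, with a median log2 fold change of 1.3. Their summed level was 95.7, 90.6, 88.1, 103 and 115 CPM in young mice 1 to 5 and 263, 127, 408 and 169 CPM in old mice 1, 3, 4 and 5. The most abundant of them was Hbb-bs. Old mice 1 and 4 were thus highest in blood markers and also in ribosomal protein mRNAs. Among the young mice the order was mixed. Young mouse 5, highest in blood markers at 115 CPM, had a mean member log2 CPM of 6.79, young mouse 4, with 103 CPM, had 6.71, and young mice 1, 2 and 3, with 95.7, 90.6 and 88.1 CPM, had 6.7, 6.82 and 6.78. The 4 endothelial markers summed to 165.6 ± 4.93 CPM in the 5 young mice (SD, n = 5), against 206.8 ± 20.5 CPM in the 4 old (SD, n = 4), 3 of them rose, and the most abundant was Flt1. The 5 microglial markers summed to 200.8 ± 29.3 CPM in the 5 young mice (SD, n = 5), against 251.5 ± 10.5 CPM in the 4 old (SD, n = 4), and 2 of them rose. Of 7 neuronal markers 2 fell (Stmn2 and Tubb3), of 5 cerebellar markers 1 fell, and of 13 mitochondrial transcripts 5 fell and 0 rose by edgeR (0 at an unadjusted p under 0.05 and 0 by DESeq2), with a median log2 fold change of -0.17. Astrocyte, mural, choroid plexus and olfactory bulb markers gave 0 calls by edgeR. At an unadjusted p under 0.05, 1 astrocyte marker was lower and 1 olfactory bulb marker higher, and DESeq2 called 1 astrocyte marker lower. All 4 olfactory bulb markers had a positive fold change (median log2 0.79), and their sum was highest in old mouse 5 at 88.2 CPM. Of the 5 cerebellar markers 0 had a positive fold change (median log2 -0.34). They summed to 676 ± 78.4 CPM in young mice (SD, n = 5), against 525.8 ± 135 CPM in old mice (SD, n = 4). Of 5 oligodendrocyte markers, Mbp and Mobp rose by 0.26 and 0.33 on the log2 scale (edgeR adjusted p = 0.018 and 0.0094) and Mog fell by 0.22 (edgeR adjusted p = 0.035). Gpr17, of 3 precursor markers, fell by 0.83 (edgeR adjusted p = 1.1e-05), and Ccdc153, of 4 ependymal markers, fell by 0.84 (edgeR adjusted p = 0.008). The immunoglobulin gene Igkc, of 2 lymphocyte markers tested, rose by 4.40 on the log2 scale (edgeR adjusted p = 0.0018). The blood, endothelial and microglial markers were entered as covariates in the fits below. The part of the other markers in the ribosomal protein result was not tested.

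The ribosomal protein calls depended on whether these markers entered the fit, in alternatives chosen after seeing the data. With the summed blood markers as a covariate, 0 members passed (edgeR, 17 at an unadjusted p under 0.05) and the median log2 fold change was 0.0984. With the endothelial markers 0 members passed (6 at an unadjusted p under 0.05) and the median was 0.0924. With the microglial markers 5 members passed (56 at an unadjusted p under 0.05) and the median was 0.198. Calls over all genes fell as well in these fits, from 1146 higher and 893 lower without a covariate to 245 and 176 with blood markers, 147 and 99 with endothelial markers, and 139 and 63 with microglial markers. The summed markers themselves differ between the ages, and their part in the ribosomal protein result cannot be told apart from age with these mice.

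**Figure D2:**
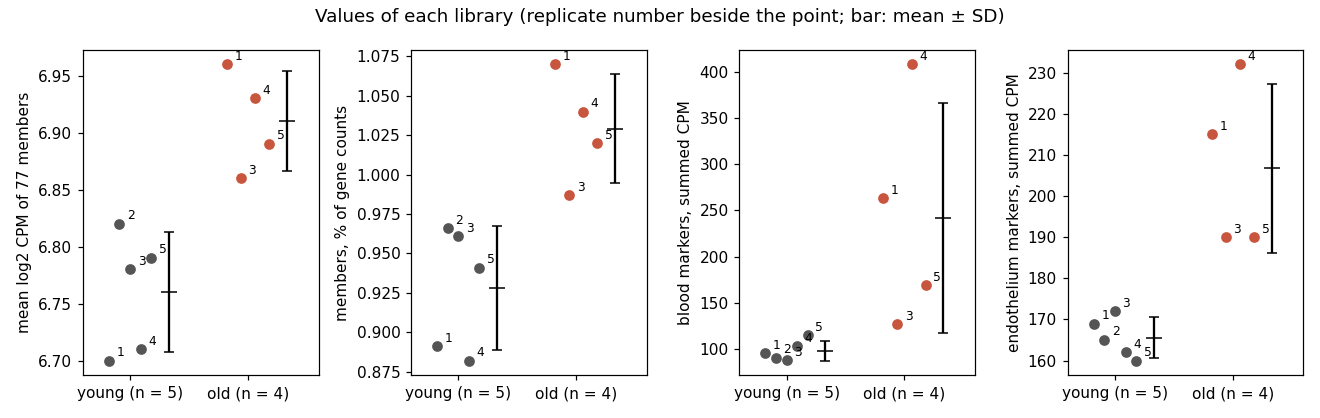
Values of each library by age (x axis), with the replicate number beside each point and bars for mean ± SD. The left panels show the mean log2 CPM of the 77 tested members and their percentage of gene counts, where all 4 old mice lie above all 5 young mice. The right panels show the summed CPM of blood and endothelial markers, with old mice 4 and 1 highest.

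In the small subunit, 21 of 31 members (67.7%) rose, with a median log2 fold change of 0.18. The smallest adjusted p of the subunit was that of Rps25 (log2 fold change 0.22, SE 0.035, edgeR adjusted p = 0.0015). Rps27 (GRCm38 chr3:90212522-90213651), a zinc finger protein of the small subunit, was at 82.3, 86.1, 88.0, 81.3 and 90.9 CPM in young mice 1 to 5 and at 113, 99.5, 101 and 93.7 CPM in old mice 1, 3, 4 and 5. Every old mouse lay above every young mouse, and the log2 fold change was 0.25 (SE 0.053, edgeR adjusted p = 0.0084). Rps18 (GRCm38 chr17:33951999-33956001), at the head of the small subunit, was at 78.9, 87.9, 85.2, 82.8 and 82.5 CPM in young and 102, 93.7, 99.0 and 99.2 CPM in old mice. The ages were again apart, with a log2 fold change of 0.24 (SE 0.04, edgeR adjusted p = 0.0022). Rps18 overlaps Vps52 on the opposite strand, and the strand setting of the counts is not given in the sources used here.

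Rps26 and Rps4x, an X-linked member, were also among the 6 members with the largest fold changes. Rps26 was at 73.6, 75.5, 71.3, 69.5 and 76.3 CPM in young and 87.7, 83.2, 87.0 and 85.9 CPM in old mice. Its ages did not overlap (log2 fold change 0.23, SE 0.038, edgeR adjusted p = 0.0021). Rps4x was at 137, 155, 143, 145 and 149 CPM in young and 174, 169, 175 and 166 CPM in old mice. All old mice were higher here as well (log2 fold change 0.23, SE 0.039, edgeR adjusted p = 0.0026).

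Rps6, the phosphorylation target of the S6 kinases, rose from 115 ± 4.17 CPM (SD, n = 5) to 128 ± 5.16 CPM (SD, n = 4), with no overlap and a log2 fold change of 0.15 (SE 0.039, edgeR adjusted p = 0.023). Rps19, which is mutated in Diamond-Blackfan anemia in humans, was at 72.8, 82.9, 85.4, 74.5 and 78.8 CPM in young and 97.3, 85.2, 87.2 and 95.2 CPM in old mice. Old mouse 3 lay just below young mouse 3, and the gene rose by 0.21 on the log2 scale (SE 0.055, edgeR adjusted p = 0.023). Rps27a (GRCm38 chr11:29545846-29548109), which encodes ubiquitin fused to a ribosomal protein, was at 92.1, 99.0, 102, 88.7 and 101 CPM in young and 116, 112, 115 and 106 CPM in old mice. The ages were apart (log2 fold change 0.22, SE 0.047, edgeR adjusted p = 0.0089), and Clhc1 overlaps the gene on the other strand.

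The 10 small subunit members that did not pass included Rps16, Rps10, Rps27l, Rps28, Rps15a, Rps2, Rps21 and Rpsa, with log2 fold changes from 0.14 for Rps16 down to 0.042 for Rpsa. Rpsa, also known as the laminin receptor, was at 194, 210, 204, 202 and 223 CPM in young and 214, 204, 221 and 212 CPM in old mice. The highest value was in a young mouse (log2 fold change 0.042, SE 0.042, edgeR adjusted p = 0.58). Rps21 averaged 103 ± 8.24 CPM in the 5 young mice (SD, n = 5), against 106 ± 8.8 CPM in the 4 old (SD, n = 4), with old mouse 5 below all young mice at 93.8 CPM. Rps2 had a log2 fold change of 0.073 (SE 0.039, edgeR adjusted p = 0.27).

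In the large subunit, 25 of 46 tested members (54.3%) rose, with a median log2 fold change of 0.14. The smallest called change was that of Rpl6 at 0.12 (SE 0.031, edgeR adjusted p = 0.024), and Rpl32 had the largest change that did not pass, at 0.17 (SE 0.052, edgeR adjusted p = 0.055).

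Rpl30 was among the 6 members with the largest fold changes. It was at 85.7, 95.8, 93.0, 86.0 and 94.8 CPM in young and 114, 101, 106 and 106 CPM in old mice. No old mouse was as low as a young one (log2 fold change 0.23, SE 0.046, edgeR adjusted p = 0.0066). Rpl5 and Rpl11 bind the 5S ribosomal RNA and, when free, the p53 regulator Mdm2. Rpl5 rose from 131 ± 4.38 CPM (SD, n = 5) to 146 ± 2.96 CPM (SD, n = 4) without overlap (log2 fold change 0.15, SE 0.035, edgeR adjusted p = 0.015). Rpl11 rose from 123 ± 5.34 CPM (SD, n = 5) to 135 ± 4.19 CPM (SD, n = 4), and 1 old mouse at 130 CPM lay under the highest young mouse at 131 CPM (log2 fold change 0.14, SE 0.039, edgeR adjusted p = 0.041). Rpl11 passed in 2 of the 9 fits that left out 1 mouse and lost its call in 14 of 25 alternatives.

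Rpl15 (GRCm38 chr14:18267823-18271391), a core protein of the large subunit, had the smallest fold change of all members. It was at 98.8, 102, 92.4, 95.7 and 94.8 CPM in young and 97.6, 94.5, 99.2 and 98.7 CPM in old mice. The ages overlapped fully (log2 fold change 0.01, SE 0.037, edgeR adjusted p = 0.9). Relative to the mean of the members in the same library, it stood between -0.25 and -0.07 in young and between -0.35 and -0.27 in old mice on the log2 scale. Rpl41, which encodes a very short peptide, and Rpl27 did not pass either, with log2 fold changes of 0.057 (SE 0.05, edgeR adjusted p = 0.52) and 0.064 (SE 0.039, edgeR adjusted p = 0.33). The gene Nkiras1 overlaps Rpl15 on the opposite strand. Of the tested members, 16 overlap a gene on the other strand, and 6 of these (37.5%) rose, beside 40 of the 61 without such an overlap (65.6%).

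The stalk of the large subunit recruits elongation factors and is built from Rplp0, Rplp1 and Rplp2. Rplp2 rose from 82.2 ± 3.03 CPM (SD, n = 5) to 93.2 ± 6.69 CPM (SD, n = 4), with old mouse 3 inside the young range (log2 fold change 0.18, SE 0.048, edgeR adjusted p = 0.026). Rplp1 averaged 261 ± 16.4 CPM in the 5 young mice (SD, n = 5), against 287 ± 13.9 CPM in the 4 old (SD, n = 4), with a log2 fold change of 0.14 (SE 0.048, edgeR adjusted p = 0.091). Rplp0 averaged 135 ± 6.37 CPM and 147 ± 7.44 CPM, with a log2 fold change of 0.12 (SE 0.044, edgeR adjusted p = 0.11). The stalk proteins thus gave 1 call of 3, with overlapping ages for each.

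Several members have a paralog of narrower expression. Rpl3l, known from muscle, was counted 10, 7, 4, 11 and 10 times in young and 12, 3, 13 and 1 times in old mice, and failed the filter. Rpl39l had at most 2 counts in a library and Rpl10l a single count in 1 young mouse, so neither was measurable at this depth. Their common counterparts were well measured. Rpl3 rose from 347 ± 21.5 CPM (SD, n = 5) to 389 ± 14.7 CPM (SD, n = 4) with a log2 fold change of 0.17 (SE 0.046, edgeR adjusted p = 0.034). Rpl10 rose by 0.16 (SE 0.047, edgeR adjusted p = 0.045) and Rpl39 by 0.18 (SE 0.052, edgeR adjusted p = 0.036) on the log2 scale.

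Rps27l, a p53-responsive copy of Rps27, was at 6.96 ± 0.391 CPM in the 5 young mice (SD, n = 5), against 7.5 ± 0.265 CPM in the 4 old (SD, n = 4), and did not pass (log2 fold change 0.11, SE 0.087, edgeR adjusted p = 0.47). Rps4l, which the annotation classes as a transcribed processed pseudogene and which therefore is no member, went the other way. It was at 14.9, 21.4, 18, 17.3 and 19.2 CPM in young and 11.2, 13.5, 13.8 and 13.7 CPM in old mice. Every old mouse lay below every young mouse, and it fell by 0.48 on the log2 scale (SE 0.1, edgeR adjusted p = 0.0082).

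Levels between members were compared per length, with the deposited TPM of each gene divided by the members' median of that library. Rplp1 stood highest at 7.92 ± 0.36 times the median (SD over 9 libraries), followed by Rps15 at 4.51 ± 0.21 and Rpl8 at 3.66 ± 0.16. Rps27l was lowest at 0.128 ± 0.0086. Rps20 at 0.261 ± 0.01, Rps19 at 0.261 ± 0.019 and Rps15a at 0.269 ± 0.011 came next and did not differ beyond their spread. In all, 49 of the 77 members lay between 0.5 and 2 times the median. The exonic length of the annotation includes rarely used exons, and for Rps19 it is 4685 bases against 703 in the principal mRNA. With counts divided by the principal mRNA length, an alternative chosen after seeing the data, Rps19 moved to 0.81, Rps20 to 0.134, Rplp1 to 3.69, Rps15 to 2.65 and Rpl8 to 1.57, and 66 members lay between 0.5 and 2. Rplp1 and Rps15 stayed highest, and the third rank of Rpl8 was lost by this length and also by the whole exonic length, where it stood at 2.62. Rps15 rose with age (log2 fold change 0.18, SE 0.046, edgeR adjusted p = 0.02), as did Rps20 (0.17, SE 0.042, edgeR adjusted p = 0.02). Rpl8 was called as well (0.16, SE 0.046, edgeR adjusted p = 0.041), but in 2 of the 9 fits that left out 1 mouse, and it lost its call in 12 of 25 alternatives.

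**Figure D3:**
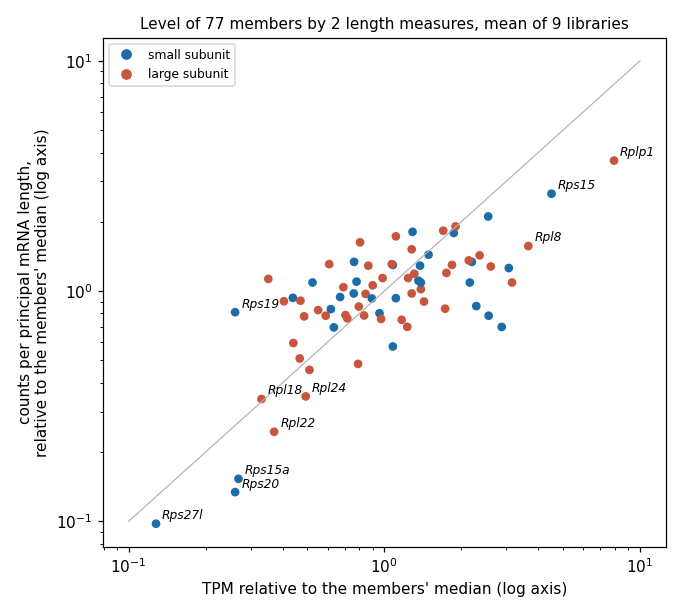
Level of each of the 77 tested members relative to the members' median, by deposited TPM (x axis, log scale) and by counts per principal mRNA length (y axis, log scale), as the mean of 9 libraries. Rplp1 is highest and Rps27l lowest on both axes, while Rps19 moves from 0.261 to 0.81.

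The sequence around the RefSeq transcription start (GRCm38.p6) was available for 60 of the 80 members. A C at the start followed by at least 4 pyrimidines was found in 12 of them (20%), against 2.49% of the 27025 genes with such a sequence. The letters CCGGAAG on either strand were found in 40% of members and 9.12% of all genes in the 300 bases from 250 before to 50 after the start, and GGGCGG in 58.3% and 35.9%. TATAAA between 40 and 15 bases before the start was found in 0 members and in 2.22% of all genes. These matches are a description of the letters only, and the RefSeq start need not be the start used in brain. Windows from 10 bases before to 20 bases after the start are shown for members with large and small fold changes and for Rps6, whose fold change lies at the median of the members, 5′ to 3′, with the longest pyrimidine run that begins with C in capitals.
Rps27 (chr3:90213629-90213658, minus strand): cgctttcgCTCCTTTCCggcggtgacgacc
Rps18 (chr17:33955646-33955675, minus strand): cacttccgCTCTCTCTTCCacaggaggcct
Rps6 (chr4:86857348-86857377, minus strand): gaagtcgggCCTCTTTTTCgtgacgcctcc
Rps26 (chr10:128626487-128626516, minus strand): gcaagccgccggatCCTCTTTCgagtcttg
Rps4x (chrX:102189372-102189401, minus strand): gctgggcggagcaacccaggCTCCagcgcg
Rpl15 (chr14:18270967-18270996, minus strand): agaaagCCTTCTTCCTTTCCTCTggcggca
Rps21 (chr2:180257369-180257398, plus strand): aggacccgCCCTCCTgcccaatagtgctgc
Of these, Rps27, Rps18 and Rps6 rose and carry the run at their start, whereas Rps26 and Rps4x rose without it at the RefSeq start. Rpl15 and Rps21 carry the run at the start and had among the smallest fold changes. Rpsa, Rpl41, Rpl27 and Rps2, also among the smallest, do not carry it at the RefSeq start, and their windows are not shown. Among tested members with a sequence, 5 of the 12 with the run at the start rose (median log2 fold change 0.12), beside 28 of the 45 without it (median 0.15).

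Ribosomal proteins that the symbol rule leaves out were measured in the same fit. Of 8 such genes, 2 rose and 0 fell, with a median log2 fold change of 0.14. Rps3a1 was at 179, 191, 189, 177 and 195 CPM in young and 218, 202, 215 and 212 CPM in old mice. All old mice were higher (log2 fold change 0.19, SE 0.039, edgeR adjusted p = 0.0084). Fau, a ubiquitin-like fusion to a small subunit protein, rose by 0.14 on the log2 scale (SE 0.042, edgeR adjusted p = 0.038), a call lost in 12 of 25 alternatives. Rack1, a signalling scaffold on the small subunit, had a log2 fold change of 0.13 (SE 0.044, edgeR adjusted p = 0.073), and Rpl36al was lowest of the list at -0.038 (SE 0.054, edgeR adjusted p = 0.7).

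Other genes with TOP mRNAs gave 7 that rose and 0 that fell of 17, with a median log2 fold change of 0.11, beside the 6.2% of all genes tested that rose and the 4.83% that fell. The 7 include Pabpc1, and 4 of them (Eif3e, Eif3f, Eif4b and Eef1a1) are counted again among the initiation and elongation factors. Eef1a1 rose from 1360 ± 40 CPM (SD, n = 5) to 1490 ± 8.26 CPM (SD, n = 4) without overlap (log2 fold change 0.14, SE 0.034, edgeR adjusted p = 0.018). Its neuronal paralog Eef1a2 fell from 1050 ± 16.5 CPM (SD, n = 5) to 938 ± 32.3 CPM (SD, n = 4), also without overlap (log2 fold change -0.16, SE 0.035, edgeR adjusted p = 0.0098). Nop53, a biogenesis factor, was highest of the TOP list at 0.23 (SE 0.046, edgeR adjusted p = 0.0069) and Eef1g lowest at -0.049 (SE 0.042, edgeR adjusted p = 0.51).

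The snoRNA host genes, whose introns carry RNAs that guide ribosomal RNA modification, gave 3 that rose of 7 and a median log2 fold change of 0.3. Snhg8 was at 11.4, 11.4, 12, 10.4 and 12.2 CPM in young and 16, 15, 14.7 and 15 CPM in old mice. The ages were well apart (log2 fold change 0.41, SE 0.069, edgeR adjusted p = 0.0024). Gas5 rose by 0.33 (SE 0.05, edgeR adjusted p = 0.0012), and Snhg6 was lowest at 0.047 (SE 0.1, edgeR adjusted p = 0.81). Gas5 was chosen after its values were seen.

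The other lists of the machinery are read against the 6.2% of all genes tested that rose and the 4.83% that fell. Of 78 mitochondrial ribosomal proteins, 0 rose by edgeR (2 at an unadjusted p under 0.05 and 0 by DESeq2) and 2 fell (16 at an unadjusted p under 0.05). The fold change was positive for 17 of them and the median log2 fold change was -0.065, and their extremes were Mrps18c at 0.18 (SE 0.071, edgeR adjusted p = 0.12) and Mrpl53 at -0.51 (SE 0.21, edgeR adjusted p = 0.14). Of 63 ribosome biogenesis genes, a list that does not hold Nop53, 1 rose and 1 fell. Nop14 rose by 0.24 (SE 0.058, edgeR adjusted p = 0.018) and Rrp12 fell by 0.23 (SE 0.052, edgeR adjusted p = 0.012) on the log2 scale. Of 45 initiation factors 3 rose, a share near that of all genes, with 9 higher and 3 lower at an unadjusted p under 0.05. They were led by Eif3f at 0.20 (SE 0.046, edgeR adjusted p = 0.014), and the median was 0.014, with Eif3j2 lowest at -0.18 (SE 0.2, edgeR adjusted p = 0.66). Of 9 elongation and release factors 1 rose and 1 fell, with a median of -0.03.

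Neither RNA polymerase I genes (15 tested, median log2 fold change -0.031) nor mTORC1 and S6 kinase genes (22 tested, median 0.0074) gave a call by edgeR or DESeq2. Before adjustment, 1 polymerase gene was lower and 2 mTORC1 genes were higher and 2 lower at a p under 0.05. Their extremes were Ttf1 at 0.10 and Taf1b at -0.16, and Eef2k at 0.18 and Tbc1d7 at -0.22, with adjusted p values of 0.58, 0.19, 0.11 and 0.16. Of 17 ribosome quality control genes, Ascc2 rose by 0.22 (SE 0.046, edgeR adjusted p = 0.0077), and the rescue factor Pelo had -0.19 (SE 0.09, edgeR adjusted p = 0.2). Listed ribosomal protein pseudogenes took about 0.005% of gene counts, and 25 of the 280 named ones were tested with 0 calls by edgeR or DESeq2 and 1 at an unadjusted p under 0.05, from Rps26-ps1 at 0.72 (SE 0.25, edgeR adjusted p = 0.085) to Rps13-ps4 at -0.31 (SE 0.27, edgeR adjusted p = 0.52). That list does not hold the pseudogene Rps4l, which fell.

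**Figure D4:**
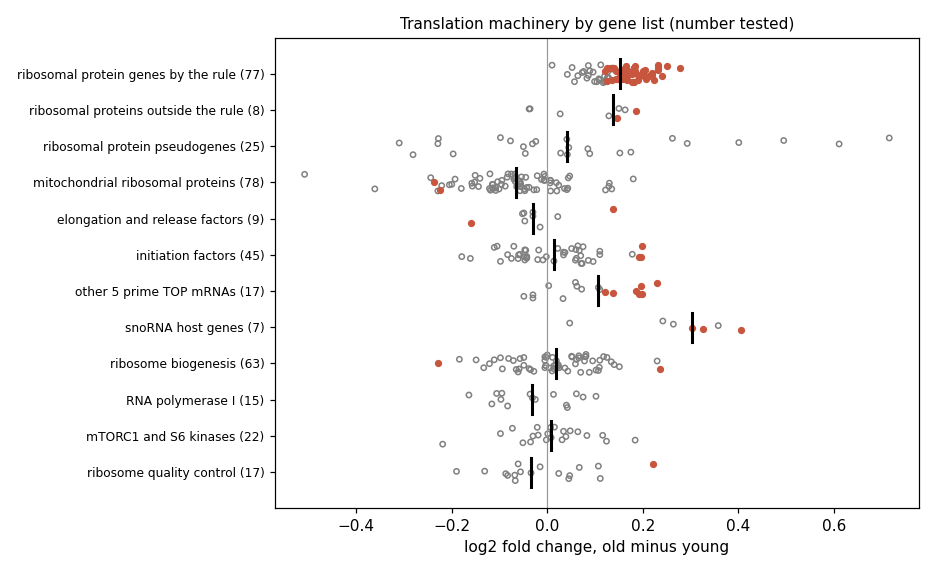
Log2 fold change (old minus young, x axis) of every tested gene in each translation list (y axis, number tested in brackets), with list medians as black bars. Red points passed an adjusted p of 0.05. The 77 ribosomal protein genes lie to the right of 0 with a median of 0.15, beside -0.065 for the 78 mitochondrial ribosomal proteins.

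The TPM scale did not show the rise. Member TPM summed to 1.73%, 1.8%, 2.3%, 1.41% and 1.52% of the total in young and 1.95%, 1.46%, 1.69% and 1.77% in old mice. The ages overlapped, with a median of 1.73% in both and young mouse 3 highest. With limma on log2(TPM + 1), the median over all genes tested was -0.14 and that of the members -0.0132, which is 0.13 above it, and 0 members passed, also at an unadjusted p under 0.05. Calls over all genes were fewer as well, with 307 higher and 287 lower, against 1146 and 893 in edgeR on counts. The fold change was positive for 30 of the 77 members there, against all 77 on the count scale. Leaving out single mice moved the number of members that rose to between 26 and 51. Without young mouse 1 it was 27, without old mouse 1 it was 26, without old mouse 4 it was 27 and without old mouse 5 it was 29. A total of 20 members, among them Rps27, Rps18, Rps26, Rps4x and Rps27a, were called in all 9 such fits. Rps6, Rps15 and Rps20 were called in 8 of them, Rps19 in 6, Rpl6 in 5, and Rpl3, Rpl10, Rpl39 and Rplp2 in 4. Over all 25 alternatives, Rpl3, Rpl10 and Rpl39 each lost their call in 12 and Rplp2 in 11.

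**Figure D5:**
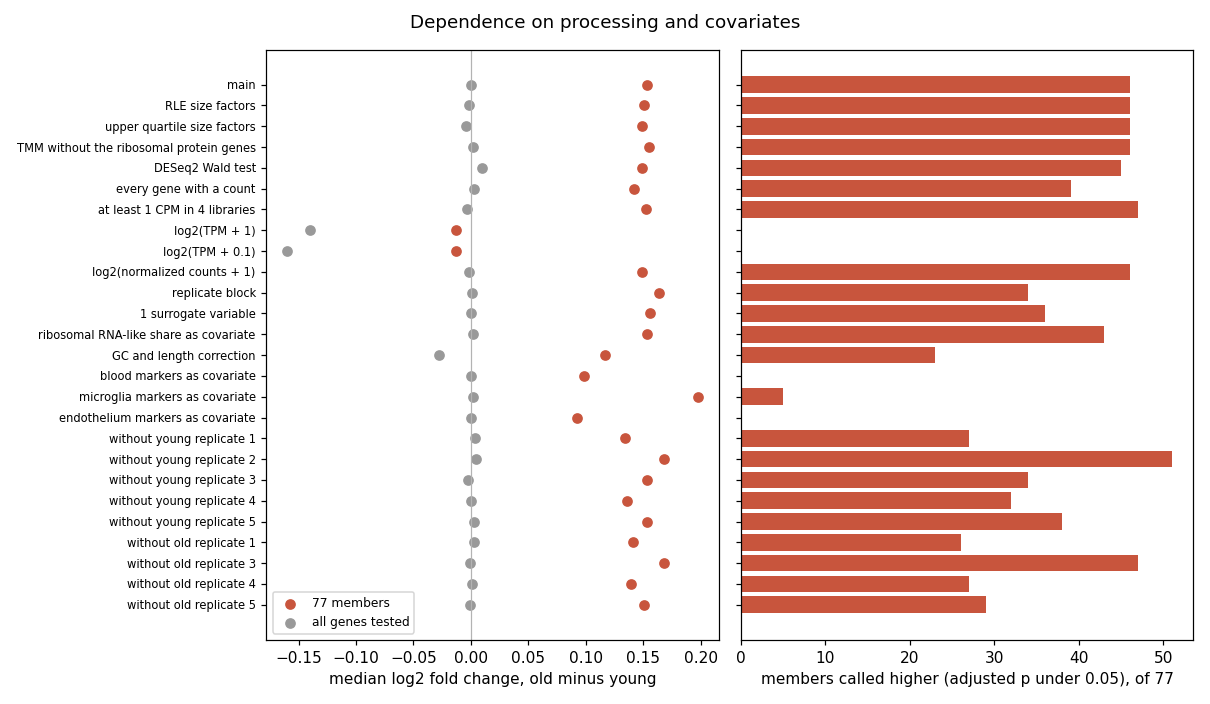
Median log2 fold change of the 77 members and of all genes tested (left, x axis) and number of members called higher (right, x axis) under each processing setting (y axis). The members lie above all genes in every setting, but on the TPM scale their own median is just under 0 and no bar is drawn where 0 members were called.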

How the data were processed

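Per the methods of the study, the authors trimmed reads with Trimmomatic 0.36, aligned them to Ensembl GRCm38 with STAR 2.5.2b and counted uniquely mapped exonic reads with featureCounts of Subread 1.5.2. They deposited whole-number counts per gene, TPM with gene lengths not given in the sources used here, and a signal of counts divided by size factors (normalized counts, 17994 genes). Each of 3 tables held 1 further column of per-sample values that was not used. Reads shared with pseudogenes were not counted.

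Low genes were removed from the count table with filterByExpr (minimum count 10, minimum total count 15) and the rest tested with edgeR 4.0.16 in R 4.3.3 (TMM, quasi-likelihood, Benjamini-Hochberg). Each SE is the absolute log2 fold change divided by the square root of the edgeR F statistic. The script was tested on simulated data. Positions and symbols came from GENCODE M21, and 259 IDs had no symbol. Alternatives used DESeq2 1.42.0, limma 3.58.1 and sva 3.50.0. Named genes were the 6 highest and 6 lowest members by fold change, the 3 highest and 3 lowest by TPM, members of known role, paralogs, and the extremes of each list. Values of several such genes were left out of the text. Members named beyond these, among them Rps25, Rpl6, Rpl32 and Rps16, were chosen after their values were seen. Members and lists were chosen with earlier results of these data known. Each library came from a separate mouse and counted as 1 replicate. Libraries of an age differed by more than sampling noise. The labels give no processing batch.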

Additional observations from a re-analysis of the deposited data

Results flagged for a closer look

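A gap test of the highest and lowest library was run on 110 combinations of a named gene or member summary with an age, and 5 were flagged where chance gives about 5.5. Rpl10 was low in young mouse 1, where it reached 6.9 on the log2 CPM scale while the rest of its age lay at 7.08 to 7.1 (gap over range 0.892). Rps27l was low in young mouse 4, at 2.68 against 2.83 to 2.88 (0.767). Rps4l was low in old mouse 1, at 3.5 against 3.76 to 3.8 (0.87). Young mouse 2 was high for Eef1a1, at 10.48 against 10.38 to 10.4 (0.849), and for Eef1a2, at 10.07 against 10.01 to 10.03 (0.725). No cause was tested for any of these.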

How the results depend on the processing

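The median log2 fold change of the members stayed positive in every setting run except the TPM scale, where it was -0.013 with either pseudocount and 0 members rose. Over all genes, 307 were called higher on that scale with a pseudocount of 1, against 1146 on counts. There 30 of 77 members kept a positive fold change, and among the named genes called on counts the sign turned for Eef1a1 (-0.026), Fau (-0.018), Rpl10 (-0.005), Rpl11 (-0.030), Rpl5 (-0.017), Rpl8 (-0.005) and Rps6 (-0.013), relative to an all-gene median of -0.14 for a pseudocount of 1 and -0.16 for 0.1. The count of members that rose was 23 with a GC and length correction (median 0.117, which is 0.14 above that of all genes, beside 0.15 without it), 14 at an adjusted p under 0.01 and 0 with a log2 fold change over 0.58. With markers as covariates, added after seeing the data, it was 0 for blood (median 0.098), 0 for endothelium (median 0.092) and 5 for microglia. Leaving out 1 mouse gave 26 to 51 members, medians of 0.134 to 0.168, and a difference in the share of counts of 0.0865 to 0.114 percentage points. Other size factors, filters, DESeq2, the authors' normalized counts, a surrogate variable and the ribosomal RNA-like share gave 36 to 47. For the shared replicate numbers 1, 3, 4 and 5, correlations of deviations between young and old mice were 0.17, -0.118, 0.088 and -0.024. Old mice 1 and 5 correlated best with the young mouse of their own number, and old mice 3 and 4 did not. With so few correlations and no reference for them, whether the numbers pair the mice cannot be told. The fit with the replicate block called 34 members. The cause of these differences was not tested. Depth left Rpl3l, Rpl39l and Rpl10l untested, and with 4 and 5 mice the standard errors of the members were 0.031 to 0.087.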
